A study of Mus musculus with 6 samples.

Results

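The 47 genes of mitosis and of the G2/M transition of the cell cycle were followed in mouse embryonic fibroblasts (MEFs), which grow in culture as connective tissue cells, with libraries labelled Ufl1-KO set against control libraries labelled NC. They were chosen by name, as genes whose products drive entry into mitosis, build the spindle, hold and separate the chromosomes or divide the cell, and each of the 47 stood on a single row among the 18134 gene names of the count table. Ufl1 encodes the ligase of UFMylation, an enzyme step that links the ubiquitin-like modifier UFM1 to other proteins. The genotype labels read Ufl1-ko and NC, with 3 libraries each, and spell out neither NC nor a cell line, clone, age or altered part of Ufl1. Knockdown and hypoxia appear in the title of the series, but no library is labelled with an oxygen condition, so only the genotype labels are compared, and a difference between cell lines or clones cannot be told apart from genotype. Separate cultures are not named for the replicates, so every p-value reflects library-to-library spread alone, and that spread may be technical.

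Most of these genes are silent in resting cells and are switched on together late in the cell cycle. Repressor and activator complexes built on the MuvB core (DREAM in resting cells, B-MYB-MuvB and FOXM1-MuvB in cycling cells) reach their promoters through an element called CHR, and the factor NF-Y binds CCAAT boxes nearby. Cyclin B with CDK1 starts mitosis, the spindle checkpoint holds cells until every kinetochore is attached, and the anaphase-promoting complex (APC/C) then has cyclin B and securin degraded.

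Total counts ran from 15887011 to 21831860 per library. Ufl1 itself fell to 3.81 ± 0.76 CPM (counts scaled to a common library size, with TMM factors) in Ufl1-KO from 25.6 ± 2.33 CPM in NC (SD, n = 3 each). NC replicate 1 stood apart: it differed from the other NC libraries with a chi-square per gene of 22.2 and 29.8, against 3.55 between NC replicates 2 and 3 and 2.35 to 3.92 among Ufl1-KO libraries. For 36 of the 47 genes it lay below both other NC libraries, and for 3 above both, with a median log2 difference of -0.18. Among 117 related genes outside S phase, listed further below, it lay below both for 46 and above both for 50 (median -0.01). The same count was not made over all genes. Of 11 fibroblast markers 10 could be tested, 9 fell and the other one was not called; their summed level was 6370 to 6592 CPM in Ufl1-KO and 11850 to 12594 CPM in NC. Lum, the marker left untested, had at most 2 counts in any library. Markers of other cell types summed to 833 to 856 CPM (epithelial, mostly from Krt18 and Krt19), 5.51 to 6.51 CPM (endothelial), 17.5 to 23.8 CPM (immune) and 2.07 to 2.95 CPM (skeletal muscle) in Ufl1-KO. In NC the same sums were 1254 to 1331, 4.83 to 7.42, 34.4 to 38.2 and 2.82 to 4.4 CPM; the part of these shifts in the results was not tested. The epithelial sums hide opposite moves: of 4 markers tested, Krt19 was lower (log2 fold change -0.85) and Cdh1 higher (0.70). Krt18 (-0.08) and Epcam (0.34) were not called. Emcn and Myf5 were at 0 counts in all libraries.

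The 47 genes did not move as one block. By edgeR's quasi-likelihood test with Benjamini-Hochberg adjustment over all genes, 19 were higher in Ufl1-KO, 8 were lower and 20 were not called, with a median log2 fold change of 0.14. Those are 40.4% and 17% of the 47, where 33.3% of the 12224 genes tested were higher and 33.4% lower, 66.7% together, with a median of 0.004. The share called higher was somewhat above that of all genes, and the share called lower was below it. All Ufl1-KO libraries lay above all NC libraries for 23 of the 47 genes (36.2% of all genes) and below for 8 (35.5% of all genes). Ccnb1, Kif14, Mad2l1, Pttg1, Kif20a and Ccnf had the largest increases, each between 1.71-fold and 1.91-fold. The largest decreases were those of Mybl2, Aurkb, Mki67 and Top2a, between 1.32-fold and 1.54-fold. In bulk RNA, a different share of cells in mitosis and a different amount of mRNA per cell cannot be told apart.

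How many genes counted as higher depended on how the libraries were scaled. Scaling by library size alone moved the median of all genes by 0.18 on the log2 scale, and 32 of the 47 genes were then higher and 4 lower (43.9% and 25.5% of all genes). On log2(FPKM + 1) values 33 were higher and 3 lower by limma (40.6% and 23.4% of all genes), and without a filter on low values 31 and 2 (33.5% and 19.3%). Library size alone and the filtered FPKM fit thus also gave more higher and fewer lower calls over all genes. Without NC replicate 1, on the TMM scale, 20 were higher and 9 lower (38.6% and 37.1% of all genes), and the median was 0.12. All 19 higher genes and 4 of the 8 lower ones, Aurkb, Mybl2, Mki67 and Top2a, kept their calls with library size alone, but Ttk, Cdc25b, Bub1b and Tpx2 were then not called (adjusted p = 0.269, 0.363, 0.143 and 0.858). Fold changes that follow are on the TMM scale unless another is named.

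**Figure D1:**
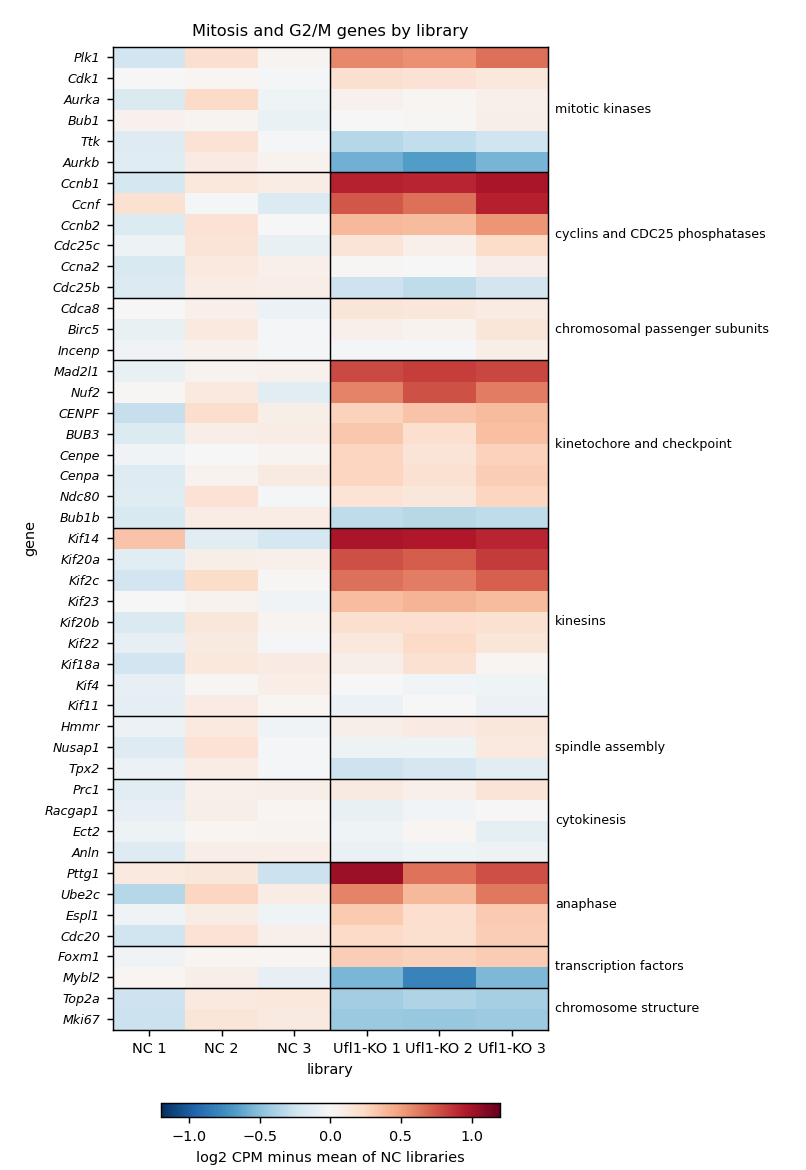
Each row is 1 of the 47 genes, grouped by role, and each column 1 library; colour is log2 CPM minus the mean of the 3 NC libraries of that gene. Ccnb1, Kif14 and Mad2l1 were redder in all 3 Ufl1-KO libraries, Aurkb and Mybl2 bluer, and NC replicate 1 was paler or bluer than the other NC libraries for most genes.

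RefSeq promoter windows of the genes at both ends of this range are printed here, because promoters carry the elements by which the family is known to be switched on. RefSeq windows of 300 bases (250 before to 50 after the start, GRCm38.p6) were found for 40 of the 47 genes, in 43 windows. Printed are the 3 genes with the largest increase and the 3 with the largest decrease among called genes with a window. Capitals mark CHR elements (TTTGAA or TTCGAA) and CCAAT boxes on either strand; no match overlapped another. The windows lie at chr1:136467598-136467897 (plus strand, Kif14), chr13:100786437-100786736 (minus, Ccnb1), chr11:43425932-43426231 (minus, Pttg1), chr2:163054385-163054684 (plus, Mybl2), chr7:135716330-135716629 (minus, Mki67) and chr11:99024140-99024439 (minus, Top2a).
Kif14: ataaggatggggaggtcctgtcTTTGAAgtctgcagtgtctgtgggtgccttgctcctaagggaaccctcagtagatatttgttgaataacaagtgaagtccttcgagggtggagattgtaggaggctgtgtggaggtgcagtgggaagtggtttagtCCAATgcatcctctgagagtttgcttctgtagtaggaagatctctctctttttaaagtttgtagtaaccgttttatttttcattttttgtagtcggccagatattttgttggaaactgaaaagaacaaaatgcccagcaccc
Ccnb1: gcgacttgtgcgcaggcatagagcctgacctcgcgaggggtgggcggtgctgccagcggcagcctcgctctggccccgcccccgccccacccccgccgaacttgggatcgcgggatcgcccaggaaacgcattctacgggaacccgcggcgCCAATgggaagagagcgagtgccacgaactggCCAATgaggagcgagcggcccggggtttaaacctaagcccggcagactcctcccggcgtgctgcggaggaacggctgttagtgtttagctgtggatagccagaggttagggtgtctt
Pttg1: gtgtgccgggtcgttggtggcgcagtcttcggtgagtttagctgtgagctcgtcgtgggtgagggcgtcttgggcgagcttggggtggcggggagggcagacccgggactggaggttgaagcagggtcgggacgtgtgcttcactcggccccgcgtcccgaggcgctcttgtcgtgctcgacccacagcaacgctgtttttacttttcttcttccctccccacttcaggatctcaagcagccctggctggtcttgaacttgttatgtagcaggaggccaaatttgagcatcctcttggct
Mybl2: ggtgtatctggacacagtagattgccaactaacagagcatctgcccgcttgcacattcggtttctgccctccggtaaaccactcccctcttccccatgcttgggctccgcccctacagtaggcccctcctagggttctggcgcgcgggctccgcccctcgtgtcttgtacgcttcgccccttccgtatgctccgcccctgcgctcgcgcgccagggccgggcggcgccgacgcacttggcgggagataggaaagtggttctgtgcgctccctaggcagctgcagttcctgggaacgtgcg
Mki67: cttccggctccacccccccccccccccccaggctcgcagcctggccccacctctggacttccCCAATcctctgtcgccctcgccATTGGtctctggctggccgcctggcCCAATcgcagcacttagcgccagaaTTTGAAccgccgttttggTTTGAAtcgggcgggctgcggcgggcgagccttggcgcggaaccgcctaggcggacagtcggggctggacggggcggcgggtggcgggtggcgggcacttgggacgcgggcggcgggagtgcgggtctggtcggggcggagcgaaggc
Top2a: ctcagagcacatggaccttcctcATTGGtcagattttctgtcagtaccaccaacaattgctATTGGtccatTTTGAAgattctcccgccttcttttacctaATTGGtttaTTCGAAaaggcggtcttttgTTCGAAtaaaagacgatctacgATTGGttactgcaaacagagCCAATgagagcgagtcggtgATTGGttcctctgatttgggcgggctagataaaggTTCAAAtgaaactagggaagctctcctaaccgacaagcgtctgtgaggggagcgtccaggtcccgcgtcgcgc

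Ccnb1, with the second largest increase, had 2 CCAAT boxes, starting at -99 and -67 from the transcription start. Its window held no TTTGAA or TTCGAA, the only forms searched as CHR. That window does hold TTTAAA, a form not searched, so a variant CHR may be missed here and in the counts below. Kif14 had 1 CHR match at -228 and 1 CCAAT box at -92. The windows of Kif14 and Pttg1 lie wholly inside the genes as annotated in GENCODE M21 (mm10), as do some others counted below. Those genes start at chr1:136466343 (Kif14, plus strand) and chr11:43426251 (Pttg1, minus strand). Such windows may miss the promoter in use, so matches found or absent there may not be those of the promoter. The Top2a window, from a gene that fell, held 4 CHR matches and 6 CCAAT boxes, and that of Mki67 held 2 and 3. Neither motif was found in the windows of Pttg1, which rose, and Mybl2, which fell. Over all 43 windows, 79.1% held a CHR match, against 19.2% of the 32851 promoter windows of the same length in the table, and 74.4% held a CCAAT box, against 37.4%. Both motifs stood together in 69.8% of the windows and in 7.52% of all windows. The 31 genes with a CHR match had a median log2 fold change of 0.16, with 12 higher and 5 lower, and the 9 without one a median of 0.24, with 5 higher and 1 lower. Genes with and without a CCAAT box had medians of 0.16 and 0.18. These matches are letters in a window and say nothing of binding.

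Counts by role, here and below, stand beside 33.3% higher and 33.4% lower over all genes tested. Among the 6 mitotic kinases, 2 rose and 2 fell (33.3% each, as over all genes) and 2 were not called, with a median log2 fold change of 0.03. Plk1, the polo-like kinase that acts from mitotic entry to cytokinesis, stood at 84.8, 82.7 and 89.4 CPM in Ufl1-KO replicates 1 to 3 and at 48.4, 64.8 and 58.1 CPM in the NC replicates. All 3 Ufl1-KO values were above the NC values, and Plk1 rose 1.5-fold (log2 fold change 0.58, SE 0.10, edgeR adjusted p = 0.000881). Aurkb, the catalytic subunit of the chromosomal passenger complex, which corrects faulty kinetochore attachments, went the other way. It stood at 103, 96.4 and 104 CPM in Ufl1-KO and at 139, 164 and 158 CPM in NC, with no overlap (log2 fold change -0.61, SE 0.08, edgeR adjusted p = 0.000136). Ttk, the checkpoint kinase also called MPS1, stood at 49.5, 51.3 and 53.2 CPM in Ufl1-KO and at 56.3, 70.8 and 62.1 CPM in NC. The groups of Ttk did not overlap, but its gap was narrow (-0.30, SE 0.09, edgeR adjusted p = 0.0178). That call ended without NC replicate 2 (adjusted p = 0.0647) or without Ufl1-KO replicate 1 or 2 (0.077 and 0.0591).

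Cdk1, the kinase that drives mitotic entry, rose by 0.16 (SE 0.06, edgeR adjusted p = 0.0281), from 182, 185 and 180 CPM to 208, 206 and 199 CPM. The spread within each group of Cdk1 was small, yet the call was lost without NC replicate 3 (adjusted p = 0.0651) or without any 1 of the Ufl1-KO replicates (0.112, 0.0834 and 0.0526), and with the replicate number as a block (0.0902). Aurka, the spindle pole kinase, and Bub1, a checkpoint kinase at kinetochores, had log2 fold changes of 0.03 and 0.02 and overlapping groups. The value of Aurka was -0.04 without NC replicate 1, and that of Bub1 was -0.01 without NC replicate 3. The paired Aurora kinases therefore shifted against each other: the ratio of Aurka to Aurkb FPKM (fragments scaled by gene length and library total, a level per length) was 0.907, 0.952 and 0.904 in Ufl1-KO against 0.577, 0.644 and 0.554 in NC. Plk1 over Aurkb FPKM was 0.725, 0.755 and 0.756 in Ufl1-KO against 0.308, 0.348 and 0.325 in NC. A ratio within a library does not depend on scaling between libraries; these pairs were chosen after their values were seen and are not tested.

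**Figure D2:**
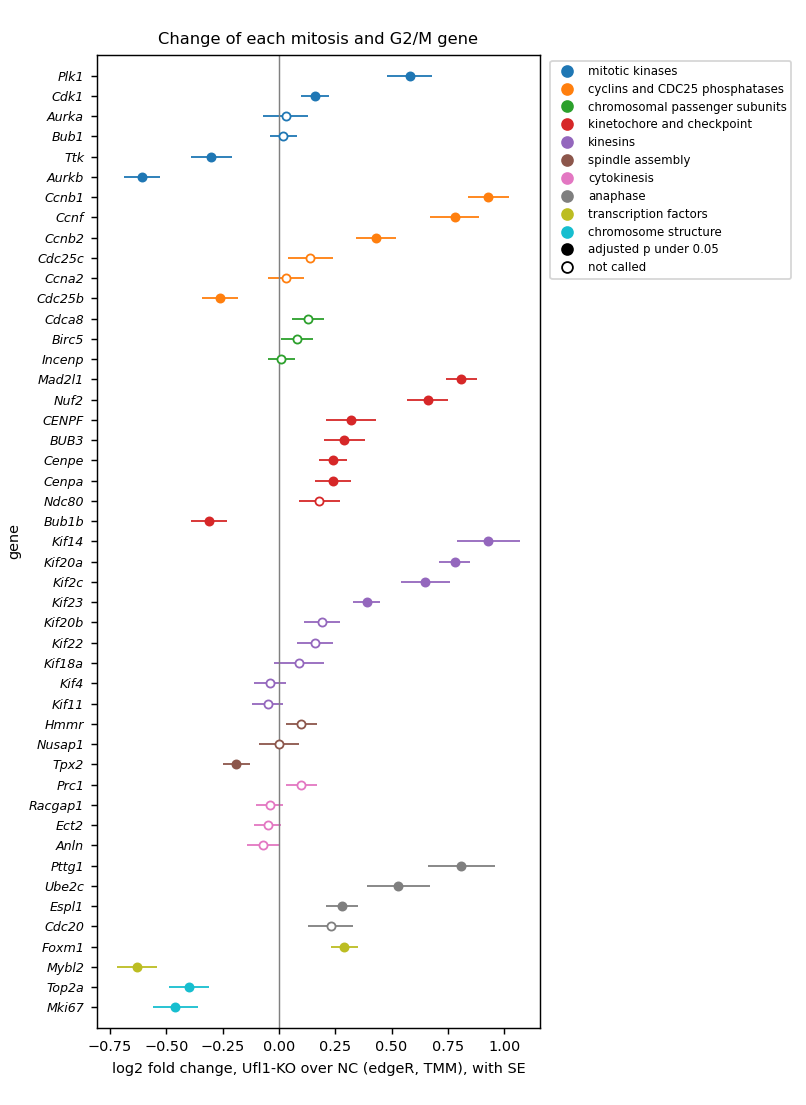
Log2 fold change of each of the 47 genes in Ufl1-KO over NC with its standard error, coloured by role; filled points passed the adjusted threshold of 0.05. Ccnb1 and Kif14 reach furthest to the right, at 0.93, while the 4 cytokinesis genes lie between -0.07 and 0.10.

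Of the 6 cyclin and CDC25 phosphatase genes, 3 rose (50%, against 33.3% of all genes), 1 fell and 2 were not called (median 0.28). Ccnb1, encoding the mitotic cyclin B1, stood at 127, 126 and 132 CPM in Ufl1-KO and at 57.7, 73.3 and 71.1 CPM in NC. The lowest Ufl1-KO library was far above the highest NC library, and Ccnb1 rose 1.9-fold (log2 fold change 0.93, SE 0.09, edgeR adjusted p = 3.08e-05). Ccnf, cyclin F, which is the substrate receptor of a ubiquitin ligase rather than a partner of CDK1, stood at 45.8, 43.1 and 51.9 CPM in Ufl1-KO and at 31, 26.8 and 24.4 CPM in NC. It rose 1.71-fold (0.78, SE 0.11, edgeR adjusted p = 0.000241), and NC replicate 1 was the highest of its controls. Ccnb2, the second B-type cyclin, was at 83.4, 82.8 and 91.9 CPM against 56.5, 71.8 and 63.1 CPM (0.43, SE 0.09, edgeR adjusted p = 0.00311). Thus Ccnb1 gained on Ccnb2, with an FPKM ratio of 0.887 to 0.975 in Ufl1-KO and 0.631 to 0.749 in NC.

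Ccna2, cyclin A2, which acts in S phase and early mitosis, had a log2 fold change of 0.03 (SE 0.08) and overlapping groups at 215 to 226 and 189 to 233 CPM. Without NC replicate 1 its value was -0.05. The FPKM ratio of Ccnb1 to Ccna2 was 0.726, 0.7 and 0.696 in Ufl1-KO against 0.364, 0.399 and 0.409 in NC, so cyclin B1 mRNA was higher relative to cyclin A2 mRNA in each Ufl1-KO library. Cdc25b, a phosphatase that activates CDK1, fell by 0.26 on the log2 scale (SE 0.08, edgeR adjusted p = 0.0173). That call ended without any 1 of NC replicates 2 and 3 and Ufl1-KO replicates 1 and 2 (adjusted p = 0.0618, 0.0738, 0.0572 and 0.0742). Its relative Cdc25c had a value of 0.14 (SE 0.10) and was not called; 12.7% of its annotated exon bases lie opposite another gene.

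The 3 further subunits of the chromosomal passenger complex were not called, unlike the kinase Aurkb they bind, and 0 of them had an unadjusted edgeR p under 0.05. Incenp, its scaffold, stood at 120, 120 and 129 CPM in Ufl1-KO and 119, 127 and 121 CPM in NC. Cdca8, or borealin, stood at 56.2, 55.7 and 54.4 CPM against 51, 52.9 and 48.3 CPM, the one subunit gene whose groups did not overlap. Birc5, or survivin, stood at 73.5, 72.8 and 77.8 CPM against 66.4, 76.2 and 69.2 CPM. Their log2 fold changes were 0.01 (SE 0.06), 0.13 (SE 0.07) and 0.08 (SE 0.07), and the value of Incenp was -0.02 without Ufl1-KO replicate 3. With library size alone all 3 passed as higher (0.19, 0.31 and 0.26), while Aurkb still passed as lower (-0.43). On that scale 43.9% of all genes were called higher and the median of all genes was 0.182, close to the value of Incenp.

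Genes grouped under kinetochore and checkpoint were mostly higher: of 8, 6 rose (75%, against 33.3% of all genes), 1 fell and 1 was not called (median 0.27). The checkpoint kinases Bub1 (0.02, not called) and Ttk (-0.30, lower) were counted with the kinases. Of 34 other kinetochore genes, taken up below, 15 were higher and 8 lower. Mad2l1, whose product MAD2 inhibits the APC/C while kinetochores are unattached, stood at 83.7, 85.9 and 84.7 CPM in Ufl1-KO and 45.5, 49.9 and 50.1 CPM in NC. The libraries of each group were close together, and Mad2l1 rose 1.75-fold (log2 fold change 0.81, SE 0.07, edgeR adjusted p = 1.31e-05). Nuf2, a subunit of the NDC80 complex that binds microtubules, stood at 63.9, 72 and 64.5 CPM against 42.7, 45.8 and 38.6 CPM (0.66, SE 0.09, edgeR adjusted p = 0.000178). Its partner Ndc80 had a value of 0.18 (SE 0.09), overlapped between groups and was not called (edgeR adjusted p = 0.0984), but passed without NC replicate 2 (0.28, adjusted p = 0.0158). Bub1b, encoding the checkpoint protein BUBR1, which joins MAD2 in the inhibitor of the APC/C, fell. It stood at 137, 134 and 137 CPM in Ufl1-KO and 149, 179 and 180 CPM in NC (-0.31, SE 0.08, edgeR adjusted p = 0.00715). The FPKM ratio of Mad2l1 to Bub1b was 0.816 to 0.85 in Ufl1-KO and 0.372 to 0.408 in NC.

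The other 4 risers of this role changed less. BUB3, the partner of BUB1 and BUBR1, had a log2 fold change of 0.29, and the centromeric histone Cenpa one of 0.24. The kinetochore motor Cenpe had 0.24 and CENPF, a large protein of the outer kinetochore, 0.32, or 0.20 without NC replicate 1 (still called). Cenpe was the one of these 4 that stayed called whichever library was left out. Without Ufl1-KO replicate 1 or 3 the adjusted p was 0.0586 and 0.0635 for BUB3 and 0.0901 and 0.101 for Cenpa. For CENPF it was 0.0504 without NC replicate 3 and 0.0527, 0.0748 and 0.0907 without Ufl1-KO replicates 1 to 3.

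Of the 9 kinesin genes 4 rose (44.4%, against 33.3% of all genes), 0 fell and 5 were not called, with a median of 0.19. By unadjusted edgeR p under 0.05, 5 were higher and 0 lower, and DESeq2 and limma-voom made the same adjusted calls. Kif20a, or MKLP2, which carries the passenger complex to the central spindle, stood at 245, 238 and 257 CPM in Ufl1-KO and 131, 151 and 150 CPM in NC (log2 fold change 0.78, SE 0.07, edgeR adjusted p = 2.39e-05). The groups were far apart, though 29.3% of the annotated exon bases of Kif20a lie opposite exons of Cdc23, an APC/C gene that rose by 0.57 (SE 0.06), and without a stated strand setting their reads cannot be told apart. Kif14, which binds citron kinase and PRC1 at the midbody, stood at 37.6, 37.1 and 36 CPM against 24.2, 17.3 and 16.5 CPM (0.93, SE 0.14, edgeR adjusted p = 0.000292). Its NC replicate 1 was the highest control, and without that library the value was 1.14. Kif23, the motor subunit of centralspindlin, stood at 109, 112 and 110 CPM against 84.1, 86.9 and 82.2 CPM (0.39, SE 0.06, edgeR adjusted p = 0.000413). The fourth riser, Kif2c or MCAK, a microtubule depolymerase at centromeres, had a value of 0.65 (SE 0.11, edgeR adjusted p = 0.000567).

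The 5 kinesins that were not called had log2 fold changes from -0.05 to 0.19. Among them were Kif11 (-0.05, SE 0.07), the motor that separates the spindle poles, and the chromokinesins Kif4 (-0.04, SE 0.07) and Kif22 (0.16, SE 0.08). The others were Kif18a (0.09, SE 0.11), which dampens chromosome movements, and Kif20b (0.19, SE 0.08). Kif20b did not overlap between groups, at 151 to 153 CPM in Ufl1-KO and 118 to 146 CPM in NC, and passed without NC replicate 1 (0.12, adjusted p = 0.0345) or NC replicate 2 (0.26, adjusted p = 0.0179). Kif22 passed without NC replicate 2 (0.23, adjusted p = 0.0347). Kif4 was at 0.01 without NC replicate 3, Kif11 at 0.00 without NC replicate 2, Kif18a at -0.01 without NC replicate 1, and with library size alone Kif4 and Kif11 were at 0.14 and 0.13. The FPKM ratio of Kif20a to Kif11 was 1.86 to 2.12 in Ufl1-KO and 1.09 to 1.14 in NC.

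The 4 genes grouped under cytokinesis lay close to no change on the TMM scale. By edgeR 0 of the 4 was called in either direction, as with DESeq2 and limma-voom, and 0 had an unadjusted p under 0.05; their log2 fold changes lay between -0.07 and 0.10 (median -0.04). Prc1, which bundles the microtubules of the central spindle, stood at 215, 208 and 222 CPM in Ufl1-KO and 183, 208 and 209 CPM in NC. Anln, the cleavage furrow protein anillin, stood at 401, 407 and 405 CPM against 379, 447 and 447 CPM. Ect2, the exchange factor that activates RhoA at the furrow, stood at 142, 150 and 137 CPM against 141, 150 and 151 CPM. Groups overlapped for all of them, also for Racgap1, the partner of Kif23 in centralspindlin (-0.04, SE 0.06). Anln passed as lower without NC replicate 1 (-0.13, adjusted p = 0.00397), while with library size alone Anln, Ect2 and Racgap1 had positive values (0.11, 0.13 and 0.14) and Prc1 was called (0.28). On log2(FPKM + 1) values Anln (0.21, limma adjusted p = 0.0204), Ect2 (0.18, adjusted p = 0.0246) and Prc1 (0.30, adjusted p = 0.00406) passed as higher, so the call of Anln turned with the setting. So Kif23 rose 1.31-fold while its partner Racgap1 had a fold of 0.972, a difference between the 2 that was not tested. Kif23 was grouped with the kinesins, as were Kif14 and Kif20a, placed above at the midbody and central spindle, which rose by 0.93 and 0.78. The result for this role thus depends on which genes it lists.

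The spindle assembly genes, 3 in number, held 1 decrease and no increase. Tpx2, which activates Aurora A on the spindle, stood at 262, 271 and 283 CPM in Ufl1-KO and 297, 331 and 306 CPM in NC (log2 fold change -0.19, SE 0.06, edgeR adjusted p = 0.0251). The groups did not overlap, but the call ended without any 1 of NC replicates 2 and 3 and Ufl1-KO replicates 1 and 2 (adjusted p = 0.0975, 0.053, 0.123 and 0.0848) and with the replicate number as a block (0.0549). Nusap1, a microtubule binding protein, stood at 128, 128 and 145 CPM against 120, 150 and 132 CPM. Hmmr, a spindle protein that is also a hyaluronan receptor, stood at 128, 130 and 134 CPM against 116, 132 and 118 CPM. Neither was called (adjusted p = 0.968 and 0.238), and both pairs of groups overlapped. Nusap1 had a fold of 0.997, and its sign was positive without NC replicate 2 (0.09).

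All 4 genes of anaphase onset had positive values, and 3 of them rose (75%, against 33.3% of all genes, median 0.40). Pttg1, securin, the inhibitor of the protease separase, stood at 18.7, 14.4 and 15.7 CPM in Ufl1-KO and 10, 10.1 and 7.69 CPM in NC. It was the least abundant of the 47 by CPM and rose 1.75-fold (log2 fold change 0.81, SE 0.15, edgeR adjusted p = 0.000994). Espl1, separase itself, stood at 76.4, 70.6 and 76.7 CPM against 59.8, 65.6 and 59.5 CPM and rose less (0.28, SE 0.07, edgeR adjusted p = 0.00823). Ube2c, the ubiquitin-conjugating enzyme of the APC/C, stood at 128, 111 and 131 CPM against 66.8, 101 and 89.7 CPM (0.53, SE 0.14, edgeR adjusted p = 0.00722). NC replicate 1 was the lowest library of Ube2c, and without it the value was 0.39; 22.8% of its annotated exon bases lie opposite Tnnc2. Cdc20, the activator of the APC/C in mitosis, had a value of 0.23 (SE 0.10) with groups apart at 70 to 75 and 51.8 to 68.9 CPM, and was not called (edgeR adjusted p = 0.0719). Without NC replicate 2 it passed (0.33, adjusted p = 0.0194), and without NC replicate 1 its value was 0.13 (adjusted p = 0.051).

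The 2 transcription factors of the program moved in opposite directions. Foxm1, the activator of late G2/M genes, stood at 163, 161 and 164 CPM in Ufl1-KO and 129, 135 and 135 CPM in NC, and rose 1.22-fold (log2 fold change 0.29, SE 0.06, edgeR adjusted p = 0.00168). Mybl2, or B-MYB, which is itself made earlier in the cycle and prepares the same promoters, stood at 55.1, 46.3 and 55.3 CPM against 82, 84.6 and 75.3 CPM. It fell 1.54-fold (-0.63, SE 0.09, edgeR adjusted p = 0.000248), close to Aurkb at -0.61; without NC replicate 1 the values were -0.60 for Mybl2 and -0.66 for Aurkb. Neither gene overlapped between groups, and the FPKM ratio of Foxm1 to Mybl2 was 2.35 to 2.84 in Ufl1-KO and 1.31 to 1.51 in NC.

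Mki67 and Top2a, the most abundant of the 47 genes by CPM, both fell. Mki67, whose product Ki-67 coats mitotic chromosomes and is widely used as a proliferation marker, stood at 599, 593 and 601 CPM in Ufl1-KO and 682, 901 and 875 CPM in NC. Top2a, the topoisomerase that untangles sister chromatids, stood at 752, 782 and 764 CPM against 849, 1089 and 1099 CPM. NC replicate 1 lay between the Ufl1-KO libraries and the other NC libraries for both. The log2 fold changes were -0.46 (SE 0.10, edgeR adjusted p = 0.00272) for Mki67 and -0.40 (SE 0.09, edgeR adjusted p = 0.00454) for Top2a, or -0.56 and -0.50 without NC replicate 1. On log2(FPKM + 1) values Top2a was not called (-0.21, limma adjusted p = 0.069). Without a filter on low values Mki67 was not called either (-0.26, limma adjusted p = 0.0614).

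Seen as shares of the summed CPM of all 47 genes, the makeup of the mitotic mRNA differed between the groups in 5 of 10 roles without overlap. Summed over the 47 genes, the level itself overlapped, at 6639 to 6810 CPM in Ufl1-KO and 6078 to 7226 CPM in NC. Mki67 and Top2a made up 20.3%, 20.7% and 20% in Ufl1-KO against 25.2%, 27.5% and 28.4% in NC. Kinesins made up 15.3%, 15.4% and 15% against 12.6%, 12.1% and 12.1%. The kinetochore and checkpoint genes held 11.6%, 11.5% and 11.6% against 9.87%, 9.82% and 9.88%. Cyclin and CDC25 genes held 8.64% to 9.03% against 7.38% to 7.48%, and anaphase genes 4.02% to 4.44% against 3.1% to 3.39%. Kinases (10.1% to 10.3% against 9.79% to 10.8%), cytokinesis genes (14.5% to 14.8% against 14.3% to 15%) and the other 3 roles overlapped. These shares do not depend on scaling between libraries, but the fall of the 2 most abundant genes raises the share of every other role, and they are given without a test.

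**Figure D3:**
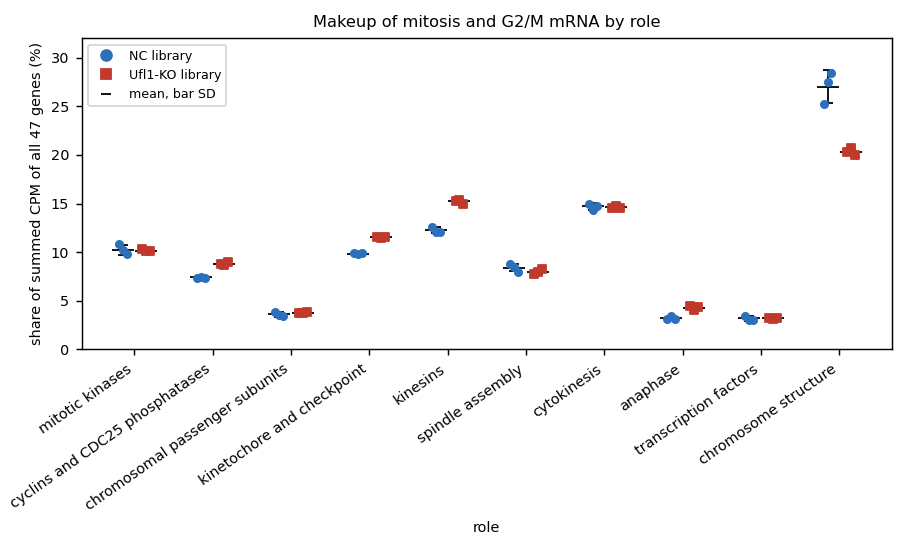
Share of the summed CPM of the 47 genes taken by each role, with 1 point per library, the mean and the SD over 3 libraries. The chromosome structure genes Mki67 and Top2a took 20% to 20.7% in Ufl1-KO and 25.2% to 28.4% in NC, while cytokinesis genes and kinases overlapped.

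Per length, levels of the 47 genes spanned from 2.59 ± 0.552 FPKM (Kif14) to 181 ± 23.3 FPKM (Top2a) in NC (SD, n = 3). In Ufl1-KO the range was 5.78 ± 0.139 FPKM (Kif14) to 169 ± 3.66 FPKM (Cdk1). Cdk1 came second in NC at 131 ± 2.09 FPKM and first in Ufl1-KO, where Top2a followed at 155 ± 2.66 FPKM. In that FPKM order Ccnb1 moved from place 29 in NC (26.6 ± 3.94 FPKM) to place 14 in Ufl1-KO (55.4 ± 1.83 FPKM). Kif23 moved from place 31 to 20 and Plk1 from 33 to 24. The widest downward moves were those of Bub1b, from place 13 to 27, Cdc25b, from 22 to 35, and Aurkb, from 8 to 15. Neighbours in the middle of the order often lie within 1 SD of each other, such as Ect2 (37.1 ± 0.805 FPKM), Kif11 (37.1 ± 2.37 FPKM) and Incenp (38.3 ± 1.3 FPKM) in NC. FPKM is scaled to the library total, so it carries the shift of all genes given above.

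**Figure D4:**
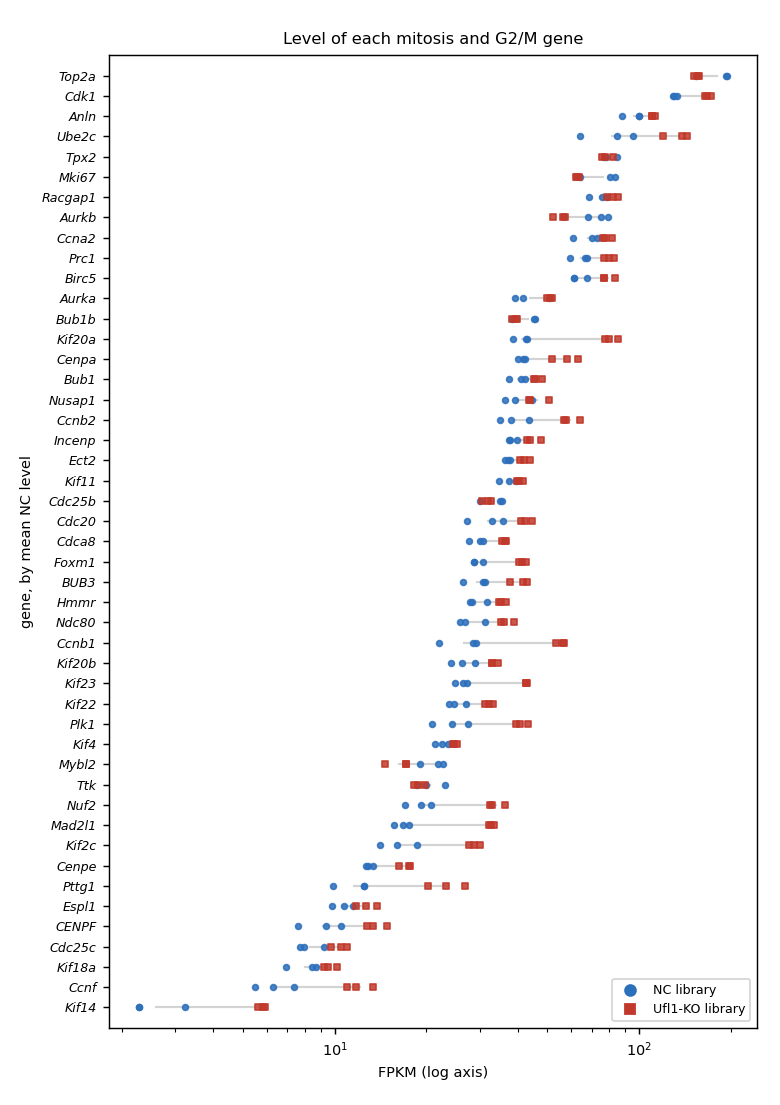
FPKM of each of the 47 genes in every library on a log axis, ordered by the mean of the NC libraries; grey lines join the group means. Kif14, Ccnb1, Pttg1, Kif20a and Mad2l1 show the widest gaps to the right, and Aurkb, Mybl2 and Mki67 lie to the left in Ufl1-KO. Top2a has a lower mean in Ufl1-KO, but its NC replicate 1 (154 FPKM) falls among the Ufl1-KO libraries (152 to 157 FPKM).

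The machinery around these genes was read from lists of related genes, whose counts stand beside 33.3% higher and 33.4% lower over all genes. Among 16 genes of the APC/C and its regulators 9 were higher and 3 lower (median log2 fold change 0.26), led by the subunits Anapc10 (0.74, SE 0.10) and Cdc23 (0.57, SE 0.06). The subunit ANAPC16 (-0.39, SE 0.09) and Fbxo5, the APC/C inhibitor EMI1 (-0.57, SE 0.20), fell, but Fbxo5 overlapped between groups, at 29 to 30.6 CPM in Ufl1-KO and 28.4, 50.6 and 54.5 CPM in NC, with NC replicate 1 the lowest library. Of 34 other kinetochore genes 15 were higher and 8 lower (median 0.10), from Cenpt (0.94, SE 0.10) and Cenps (0.92, SE 0.14), both of the inner kinetochore, to Nsl1 (-0.83, SE 0.13), of the MIS12 complex, and Cenpp (-0.86, SE 0.12), also of the inner kinetochore. Other spindle and centrosome genes were called in both directions, 6 higher and 4 lower of 18, with Gtse1 (0.76, SE 0.13) and Sass6 (0.46, SE 0.11) at the top and Psrc1 (-0.46, SE 0.17) and the microtubule polymerase Ckap5 (-0.34, SE 0.10) at the bottom. Of 10 genes listed under other cytokinesis 3 were higher, including Fam83d (0.80, SE 0.10) and Depdc1b (0.61, SE 0.15). In that list 3 were lower, including Depdc1a (-0.42, SE 0.11) and Rhoa (-0.40, SE 0.05). The name of this list is a loose grouping and does not state what each gene does. With library size alone (43.9% higher and 25.5% lower over all genes) the APC/C counts became 11 higher and 1 lower, the kinetochore counts 21 and 5, the spindle and centrosome counts 10 and 0 and the cytokinesis counts 6 and 1. Fbxo5, Psrc1, Ckap5 and Depdc1a were then not called (adjusted p = 0.113, 0.172, 0.154 and 0.0699), and Psrc1 overlapped between groups.

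Condensin and cohesin genes were more often lower than higher, at 8 and 4 of 18 (median -0.16). The cohesin subunit Smc3 (-0.69, SE 0.09) and the condensin subunit Smc4 (-0.64, SE 0.08) fell, and the cohesin regulators Pds5b (0.38, SE 0.09) and Pds5a (0.32, SE 0.08) rose. Of 9 regulators of mitotic entry 3 were higher, including the Aurora A activator Bora (0.61, SE 0.12) and the PP2A inhibitor Arpp19 (0.53, SE 0.07), and 2 lower, the CDK1-inhibiting kinase Pkmyt1 (-0.49, SE 0.08) and Ppp2r2d (-0.30, SE 0.08). In the list of MuvB and DREAM genes 2 of 12 were higher, the pocket protein Rbl1 (0.85, SE 0.07) and Lin9 (0.37, SE 0.08), and 3 lower, including Lin37 (-0.79, SE 0.12) and LIN52 (-0.41, SE 0.11) of the MuvB core. Of 24 S phase genes, for comparison, 6 were higher and 9 lower (median -0.13), from Ccne1 (2.02, SE 0.19) and Rrm2 (1.47, SE 0.07) to Cdt1 (-0.83, SE 0.10) and E2f1 (-1.41, SE 0.08). With library size alone the condensin and cohesin counts became 5 higher and 5 lower and the S phase counts 8 and 8, with medians of 0.02 and 0.05. Mitotic entry counts became 3 and 1 and MuvB and DREAM counts 4 and 2, and Ppp2r2d and LIN52 were not called (adjusted p = 0.191 and 0.0716).

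**Figure D5:**
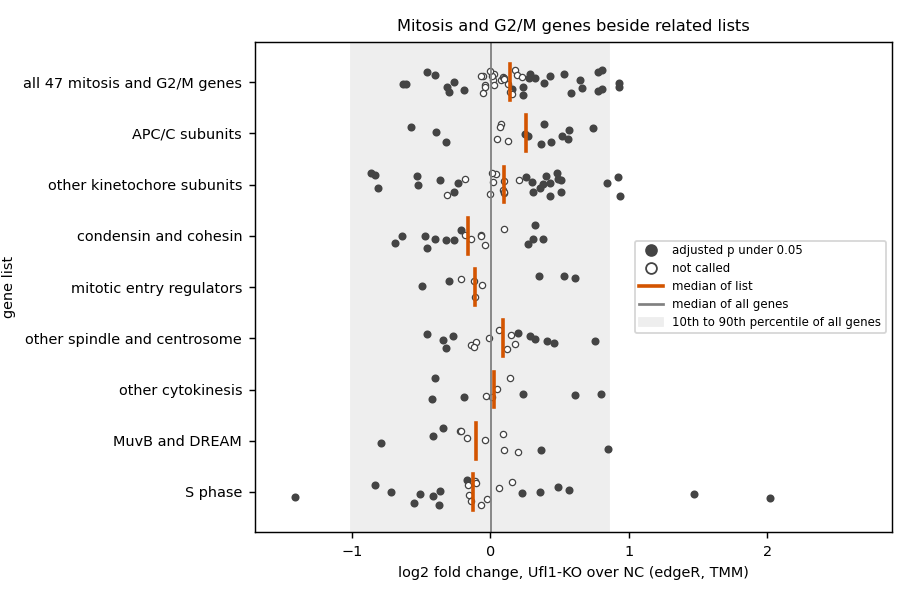
Log2 fold change of every tested gene of the 47 and of 8 related lists in Ufl1-KO over NC; filled points passed the adjusted threshold, orange bars are list medians, the grey line is the median of all genes and the grey band their 10th to 90th percentile (-1.01 to 0.86). Most of the 47 genes lie inside the band, and the list medians run from -0.16 to 0.26.

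Some of these counts share reads with other genes. Values of Ccna2, Kif20a, Kif4, Nusap1 and Prc1 were not whole in at least 1 library, so 5 of the 47 rest on estimated counts. Exons of 12 of the 47 overlap exons of another protein-coding gene in GENCODE M21 (mm10), over more than 10% of their bases for Ccna2, Cdc25c, Kif20a, Kif4, Prc1 and Ube2c. Pseudogenes named after Ccnb1, Ccnb2, Kif22 and Kif4 are annotated too, and how reads were split among copies is unknown here.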

How the data were processed

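Total RNA of MEFs was sequenced in 3 Ufl1-KO and 3 NC libraries. The deposited tables hold estimated counts per gene, not normalised, and FPKM values that the authors scaled by length and library total, per the file headers. Per the submitters' processing notes, featureCounts 2.0.0, STAR 2.7.7a and fastp 0.20.1 were used. Those notes name the builds GRCh38, hg38 and mm10 with no role for each. Annotation release and strand setting: not given in the sources used here. Rows without a name (1225 of 22274, 0.594% to 0.661% of counts) were left out, and rows sharing a name, ignoring case, were summed and rounded. In each library 7.29% to 8.09% of rows differed from a whole number by more than 0.001.

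The test on counts was that of edgeR 4.0.16 (under R 4.3.3, quasi-likelihood, TMM, filterByExpr, two-sided, Benjamini-Hochberg over 12224 genes, threshold 0.05). That fit was tried on simulated counts in which few genes changed. How its scaling behaves when most genes are called, as here, was not tested. The SE is the log2 fold change over the root of F. The members and lists were chosen with earlier results of these data known, and ratios after values were seen. Within each role, the 3 members with the smallest p are given by library, and of each related list the 2 called genes with the largest change in each direction. Sgo2a was not analysed, and Cenpc1, Sept2, Sept7 and Sept9 were matched through RefSeq synonyms. Alternatives used DESeq2 1.42.0, limma 3.58.1 on voom or log2 FPKM values (pseudocount 1 or 0.1, mean FPKM of at least 0.1), other scalings and filters, a replicate block and each library left out. Figures used Python 3.11.15 and matplotlib 3.10.9.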

Additional observations from a re-analysis of the deposited data

How the results depend on the processing

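Under DESeq2 size factors, limma-voom, the DESeq2 test, a test without a count filter, a CPM of at least 1 in 3 libraries and rows kept separate, the same 19 genes were higher and the same 8 lower. Upper-quartile scaling kept all but Tpx2. With library size alone 32 were higher and 4 lower; in the FPKM fits 33 and 3 with pseudocount 1 or 0.1, and 31 and 2 without a filter. Over all genes these FPKM fits called 5191 higher with 2989 or 3001 lower of 12785, and 5165 and 2984 of 15423. The median over all genes was 0.040 to 0.168 in the FPKM fits and 0.182 with library size alone, against 0.004 in the report. The cause was not tested. Against a fold change of 1.5, 4 of the 47 were higher (Ccnb1, Kif14, Kif20a and Mad2l1) and 0 lower, beside 1214 higher and 1587 lower of all 12224 genes tested. The share of the 47 called higher in that test was not above that of all genes. At an unadjusted p under 0.05 that test gave 6 higher and 0 lower of the 47. Leaving out 1 library at a time gave 15 to 23 higher and 5 to 9 lower genes, with 5 lower without NC replicate 2 (Cdc25b, Tpx2 and Ttk not called) and, the same 3 lost, without Ufl1-KO replicate 1 or 2. Over all genes those fits called 3488 to 4783 higher and 3607 to 4594 lower, of 12293 to 12405 tested. Apart from the 1.5-fold null, 14 higher genes and, among the lower ones, Aurkb and Mybl2 kept their call under every alternative. The same count was not made over all genes.

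Signs turned for genes that were not called in the report, and Anln and Ect2 passed as higher in the FPKM fits; the cause was not tested. With library size alone the values were 0.14 for Kif4 and Racgap1, 0.13 for Kif11 and Ect2, 0.18 for Nusap1 and 0.11 for Anln. In the FPKM fits they were 0.14 for Kif4 and Racgap1, 0.13 for Kif11, 0.21 for Nusap1 and Anln, and 0.18 to 0.19 for Ect2. Nusap1 was at 0.01 with upper-quartile scaling and without a filter. With 1 library left out, values ran from -0.04 to 0.16 (Aurka), -0.01 to 0.06 (Bub1), -0.05 to 0.09 (Ccna2), -0.02 to 0.05 (Incenp), -0.07 to 0.01 (Kif4), -0.10 to 0.00 (Kif11), -0.01 to 0.16 (Kif18a), -0.07 to 0.09 (Nusap1) and -0.08 to 0.00 (Racgap1).

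Replicate numbers did not pair the libraries: deviations of same-numbered libraries correlated at 0.03, -0.21 and 0.03. With the replicate block 18 genes were higher and 7 lower, with Cdk1 and Tpx2 not called, and 3892 and 3910 of all 12224 genes tested. The lowest count of any of the 47 genes in a library was 113 (Pttg1).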
